A study of Mus musculus with 27 samples.

Results

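The data described here are the RNA-Seq libraries of a *Kdm1a* knockdown (KD) in mouse erythroleukaemia (MEL) cells, an erythroid progenitor-like line that can be driven to mature in culture. They were chosen as the libraries of the table that compares *Kdm1a* KD with its control: 1 control library and 2 KD libraries, 3 of the 27 samples of the series and 3 of its 21 RNA-Seq libraries, with all 16465 genes listed. The study reduced *Kdm1a* with short hairpin RNAs (shRNAs) delivered by lentivirus, as it also did for *Cbfa2t3* (which encodes ETO2) and *Irf2bp2*, reduced *Gfi1b* with siRNA, and induced unmodified MEL cells to mature. The labels call the control WT, and per the study's methods its controls received a non-targeting construct. The study places the *Kdm1a* KD expression data at the later of its harvest times after transduction, and its methods call the sequenced replicates biological and independent. Which *Kdm1a* hairpin each KD library received is not given in the sources used here. The labels give hairpins sh2 and sh3 for the *Cbfa2t3* KD and sh1 for the *Irf2bp2* KD. All groups are of the same MEL line and carry no other genetic change in the labels.

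*Kdm1a* encodes LSD1, an enzyme that removes mono- and dimethyl marks from lysine 4 of histone H3. LSD1 has no sequence preference of its own. It works in a complex with CoREST proteins and the deacetylases HDAC1 and HDAC2, and is brought to DNA by factors such as GFI1, GFI1B and TAL1. In blood it is known for silencing progenitor and other-lineage genes and for its need in red cell and platelet formation.

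The knocked-down RNA was checked first. *Kdm1a* lies on the minus strand of chromosome 4 of mouse build mm9, at chr4:136106455-136158638. Read counts scaled to library size, as CPM, were 151.6 for the control, 16.9 for KD replicate 1 and 16.3 for KD replicate 2. The KD level was thus 9.11-fold lower, a log2 difference of -3.19. The authors' RPKM values, which take gene length into account, were 49.97 in the control and 5.69 and 5.43 in the KD libraries. In the 4 control libraries of the *Cbfa2t3* and *Irf2bp2* KDs, scaled together with the 3 libraries described here, *Kdm1a* lay between 138.7 and 160.9 CPM, so neither KD library overlapped any control.

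The control held 49316248 counted reads and the KD libraries 53645113 and 45840066, and 3 reads corresponded to between 0.0553 and 0.0656 CPM. A single control gives no measure of the spread between controls, and the KD is therefore described without a test or p-value. A gene was called higher or lower when both KD libraries lay 0.5 or more from the control on the log2 scale in the same direction. Of the 12628 genes with enough reads, 1655 (13.1%) were called higher and 1238 (9.80%) lower, and 597 and 267 of them by a log2 of 1 or more. The KD libraries resembled each other: the median absolute gap between them was 0.087 and the 95th percentile 0.51, although 224 called genes had a gap over 0.5. The median difference over all genes was 0.0014. Genes with under 10 reads in the control had enough reads only through the KD libraries. In the gene lists below these are *Tmem173*, *Gfi1*, *Bok*, *Dusp4*, *Hfe*, *Mmp9*, *Hist3h2bb-ps*, 4 interferon-stimulated genes (*Ifit1*, *Oasl2*, *Mx1* and *Mx2*), 4 lymphoid and 2 mast cell markers among those called higher, and no count that includes them is support for a direction. The reverse holds for genes called lower with under 10 reads in both KD libraries, such as *Mef2c*, tested only through the control. With 10 counts required in every library, 1368 of the 1655 higher and 1115 of the 1238 lower genes were still tested. The shares over all genes thus include such genes. The plot of both KD libraries against each other shows the spread between them.

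**Figure D1:**
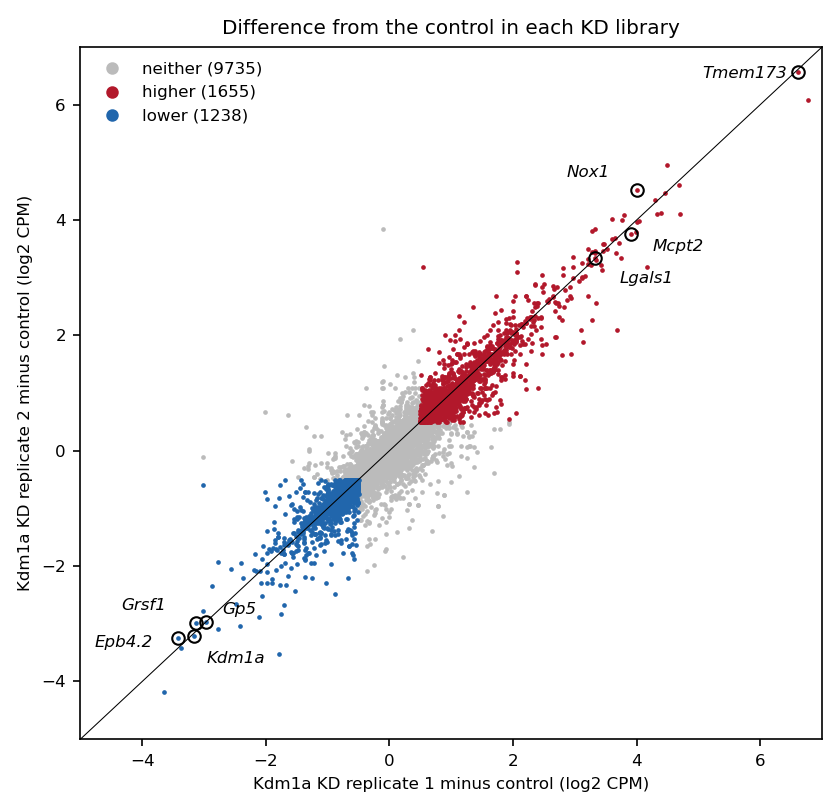
Difference from the control in KD replicate 1 (horizontal axis) and KD replicate 2 (vertical axis), in log2 CPM, for 12628 genes, with the diagonal as a line and 8 named genes circled. The 1655 genes called higher are red and the 1238 called lower are blue, and *Tmem173* lies furthest up among the named genes and *Epb4.2* furthest down.

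How far control libraries differ from each other was measured with the 4 controls of the other shRNA experiments, whose tables have their own samples. When all were scaled together and the call rule was applied to 12975 genes, the pair of *Cbfa2t3* controls differed from the *Kdm1a* control at 778 genes (6.0%), the pair of *Irf2bp2* controls at 1484 genes (11.4%) and the pair of *Kdm1a* KD libraries at 2965 genes (22.9%). Experiment and control cannot be told apart in these differences. Both KD libraries lay above all 5 controls at 25.3% of genes and below all 5 at 24.0%. Of the genes called higher on this scale, 1332 of 1703 (78.2%) were above all 5 controls, and 1083 of 1262 called lower (85.8%) were below all 5. This range is given beside the genes below. The *Kdm1a* control is among the 5 and most called genes lie outside them, so this position alone does not set a gene group apart.

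**Figure D2:**
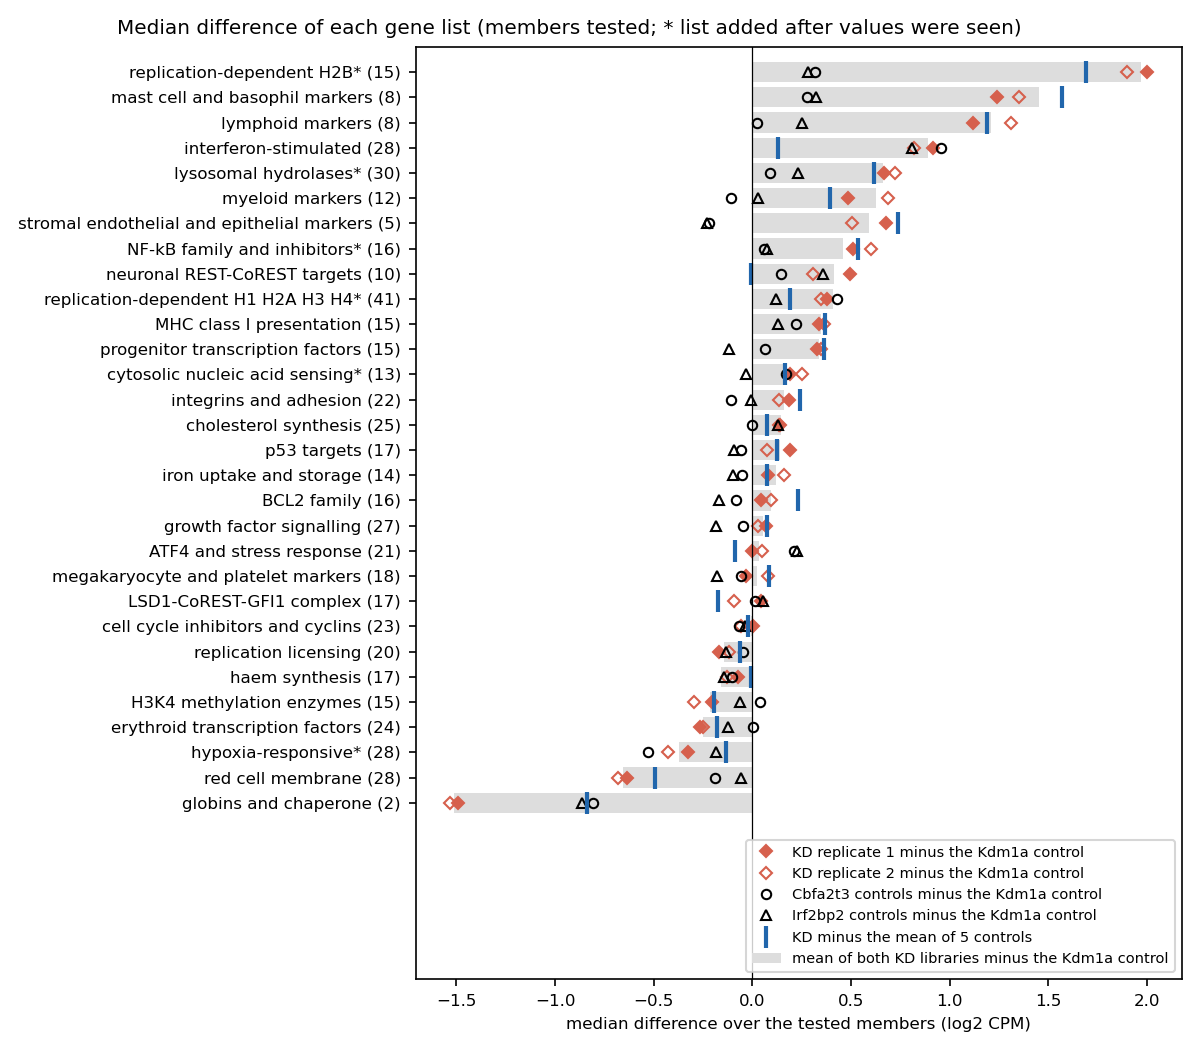
Median log2 difference over the tested members (number in brackets) of each gene list. Bars and diamonds show the *Kdm1a* KD against its own control, open circles and triangles show the *Cbfa2t3* and *Irf2bp2* controls against that same control, and blue ticks show the KD against the mean of 5 controls: for interferon-stimulated genes the other controls (0.95 and 0.81) lie as high as the KD (0.89), while for lysosomal genes and H2B histones they do not.

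The largest rises included the genes for STING, galectin-1 and a mast cell protease. *Tmem173*, which encodes the DNA-signalling adaptor STING, had 0.041 CPM in the control, or 2 reads, and reached 7.87 and 7.70 CPM after KD. The ratio was 191 with a 95% counting interval of 52.6 to 1577, and no control of the 5 exceeded 0.16 CPM. *Lgals1*, which encodes galectin-1 and was by far the most abundant of these genes, went from 126 CPM to 1268 and 1279 CPM. *Mcpt2*, a mast cell protease gene, went from 4.25 to 64.7 and 58.0 CPM, and *Nox1*, an NADPH oxidase gene, from 0.51 to 8.83 and 12.7 CPM. Each of these 4 genes was above all 5 controls in both KD libraries.

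The remaining largest rises were 10.3-fold for *Neurl3*, a ubiquitin ligase gene, 9.49-fold for *Dpp7*, a lysosomal peptidase gene, 8.67-fold for *Rogdi*, 8.54-fold for *Nagk*, a sugar kinase gene, and 8.47-fold for *Tubb3*, the beta-tubulin gene of neurons. *Isg15*, which encodes a ubiquitin-like protein induced by interferon, was 8.26-fold higher, *Pilrb1* 7.86-fold and *P2rx7*, an ATP-gated channel gene, 7.11-fold. *Pik3r6*, a regulatory subunit of PI3-kinase, was 6.87-fold higher, the NF-kB subunit gene *Rel* 6.03-fold and *Thy1*, a surface glycoprotein gene, 5.94-fold. All 15 were above all 5 controls, which include the control they were ranked on. *Isg15* came closest to them, with KD values of 11.2 and 10.3 CPM beside controls of 1.32 to 7.42 CPM.

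*Epb4.2*, which encodes protein 4.2 of the red cell membrane skeleton, had the largest fall. It went from 12.6 CPM to 1.14 and 1.29 CPM, 10.4-fold lower, beside 5 controls of 7.90 to 12.8 CPM. *Grsf1*, which encodes an RNA-binding protein of mitochondrial RNA granules, went from 121 to 13.8 and 15.3 CPM. *Gp5*, the platelet glycoprotein V gene, went from 45.9 to 5.83 and 5.82 CPM. Among genes with a mean of 5 CPM or more, these and *Kdm1a* had the largest falls, and none overlapped a control.

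Large falls were also found for a co-chaperone gene and an actin regulator. *Ptges3*, which encodes the p23 co-chaperone of HSP90, was 4.92-fold lower, from 338 to 64.9 and 72.9 CPM. *Arpc1a*, a subunit of the actin-nucleating ARP2/3 complex, was 4.37-fold lower and *Cbr1*, a carbonyl reductase gene, 4.41-fold lower. *Hecw1* was 5.92-fold lower, *Tmem59* 4.26-fold, *Reps2* 4.15-fold and *Prkcq*, a protein kinase C gene, 3.72-fold. *Podxl*, which encodes the surface sialomucin podocalyxin, went from 462 to 118 CPM in both KD libraries. All but 1 of the 15 largest falls lay below every control, the control used for the ranking included. The exception was *Hbq1b*, a theta-globin gene, with 6.03 and 5.12 CPM in the KD libraries, 21.6 CPM in its own control and 5.31 to 7.86 CPM in the other 4 controls.

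**Figure D3:**
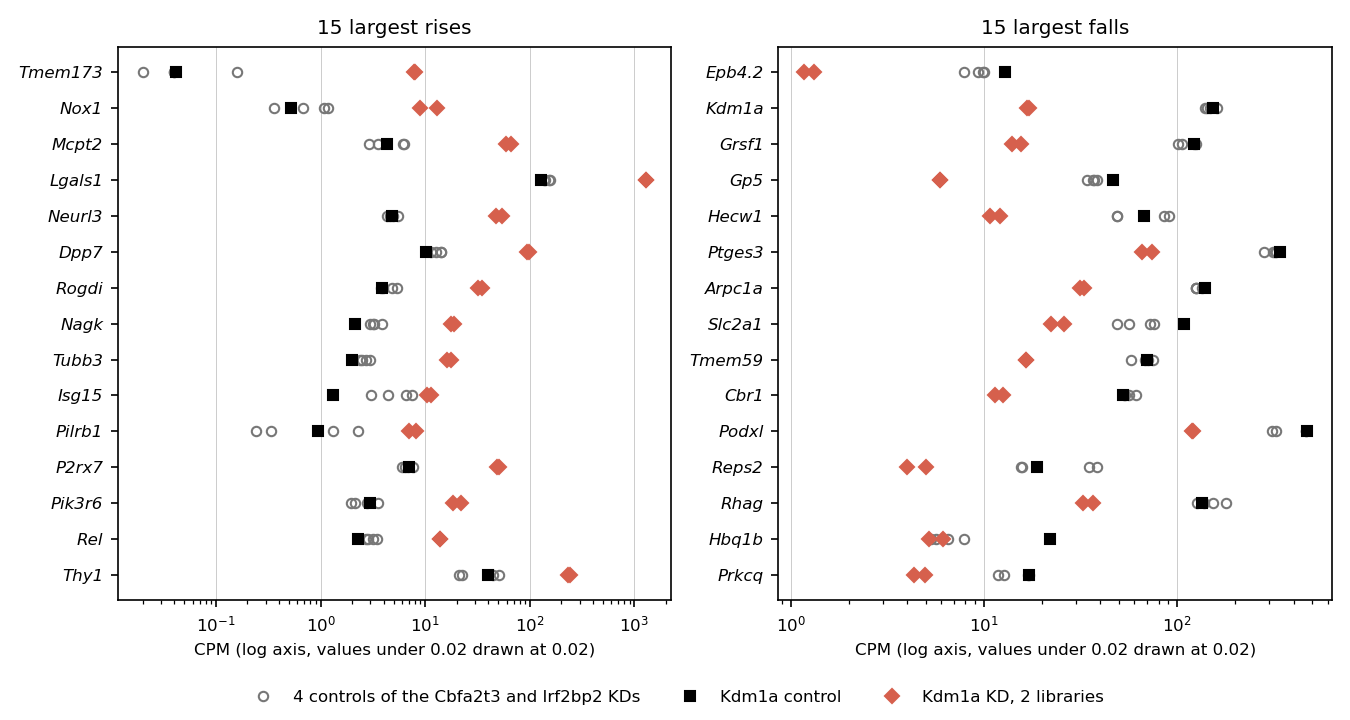
CPM on a log axis of the 15 largest rises and the 15 largest falls, ranked by the smaller of the 2 KD differences among genes with a mean of 5 CPM or more. The KD libraries (diamonds) lie outside all 5 controls (squares and circles) for every gene drawn except *Hbq1b*, where they overlap 4 of the controls.

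A site list for ETO2 and IRF2BP2 chromatin binding in MEL cells, given on mm9, places sites at the start of some called genes. They include *Csf2rb* and *Lmo2* with sites shared by both factors and *Hmox1*, *Abca1*, *Egr1*, *Ccnd2* and *Bmf* with sites of IRF2BP2 alone. How often a site lies at a start was counted neither for called genes nor for all genes. Shares by nearest gene within 1 Mb are given below. Windows of 3 genes were chosen after the values were seen, those of the largest fall (*Epb4.2*), of a protease gene among the largest rises (*Mcpt2*) and of the factor that recruits LSD1 (*Gfi1b*). The centre of each site is shown with 75 bases on either side, on the plus strand of mm9 as read from the genome, with every GATAA, the core letters read by GATA factors, in capitals on either strand. The *Epb4.2* site is at chr2:120862732-120862882 and is centred 1 base into the first exon, on a gene that runs on the minus strand (chr2:120843627-120862808). The *Mcpt2* site is at chr14:56660727-56660877, centred 158 bases before the start of a plus-strand gene, and the *Gfi1b* site is at chr2:28477461-28477611, centred 34 bases before the start of a minus-strand gene.
*Epb4.2* (lower): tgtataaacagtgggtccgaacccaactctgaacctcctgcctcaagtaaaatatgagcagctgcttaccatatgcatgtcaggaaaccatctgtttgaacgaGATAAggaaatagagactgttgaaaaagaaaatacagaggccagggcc
*Mcpt2* (higher): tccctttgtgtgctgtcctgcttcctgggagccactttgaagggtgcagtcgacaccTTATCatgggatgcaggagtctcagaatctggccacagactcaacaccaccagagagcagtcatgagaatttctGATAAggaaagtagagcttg
*Gfi1b* (higher): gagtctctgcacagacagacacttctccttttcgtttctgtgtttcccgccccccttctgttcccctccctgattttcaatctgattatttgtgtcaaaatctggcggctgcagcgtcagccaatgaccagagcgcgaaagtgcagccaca
The *Epb4.2* window held 1 GATAA and its site was shared by both factors. That of *Mcpt2* held 2 and was bound by ETO2 alone, and that of *Gfi1b*, also bound by ETO2 alone, held 0. The list holds no LSD1 binding data.

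Within the LSD1 complex, the partners of the enzyme differed. *Gfi1b*, the factor through which LSD1 is recruited in red cell precursors, went from 168 CPM to 377 and 356 CPM, above all 5 controls (154 to 186 CPM). Its relative *Gfi1*, which is the form of granulocyte and lymphoid precursors, went from 0.082 CPM, or 4 reads, to 1.09 and 1.18 CPM, a 13.8-fold difference with a counting interval of 5.25 to 51.6. Per length *Gfi1* stayed far below *Gfi1b*: the RPKM in KD replicates 1 and 2 were 0.46 and 0.41 for *Gfi1* and 218 and 204 for *Gfi1b*.

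The deacetylase gene *Hdac2* went from 228 to 85.9 and 93.3 CPM, 2.55-fold lower and below all 5 controls, whereas *Hdac1* differed by a log2 of 0.24. *Ctbp2*, a co-repressor gene, was lower by 0.51, a call lost against the mean of the 5 controls and with DESeq2's shrunken fold changes, and *Zfp217*, whose protein binds the complex, was higher by 0.65. The CoREST genes *Rcor1* (-0.27), *Rcor2* (0.02) and *Rcor3* (0.47) were not called. In all, 3 of the 17 tested genes of the complex were higher and 3 lower, with a median of -0.003. The lower ones include *Kdm1a* itself, and *Gfi1* had enough reads to be tested only through the KD libraries, so no share is read from this count (13.1% of all genes were higher and 9.80% lower). Among 15 enzymes that write or erase H3K4 methylation, only *Kmt2c*, a methyltransferase gene, was called, lower by 0.67 (not called with shrunken fold changes), and the list's median was -0.21. The related demethylase *Kdm1b* differed by -0.34.

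Red cell membrane genes were lower as a group. The proteins of this list form the spectrin skeleton, its anchors and the transporters and blood group antigens on it. Of 28 tested members, 15 were called lower and 1 higher, a median log2 difference of -0.66, beside 9.80% lower over all genes. All 15 lay below each of the 5 controls, as did 85.8% of all genes called lower with the 5 controls scaled together. Against the mean of the 5 controls the median was -0.50. In these bulk libraries, fewer maturing cells and less RNA per cell cannot be told apart.

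*Slc4a1*, the anion exchanger band 3, went from 3.56 CPM to 0.41 and 0.48 CPM, 8.08-fold lower. Among the Rh proteins, *Rhag* went from 133 to 31.9 and 36.2 CPM and *Rhd* from 66.9 to 19.8 and 19.5 CPM. *Slc2a1*, the glucose transporter GLUT1, went from 108 to 25.4 and 21.9 CPM, beside other controls down to 48.8 CPM. Smaller differences were found for the anchor and skeleton genes *Ank1* (-0.80), *Sptb* (-0.97), *Dmtn* (-0.84), *Add2* (-0.64) and *Tmod1* (-0.68). The antigen *Icam4* was lower by 0.71, *Cd47* by 0.76 and *Cd59a*, a complement inhibitor, by 1.00. *Slc22a4*, a carnitine transporter family gene, went from 4.72 to 2.23 and 2.62 CPM. The beta-spectrin gene *Sptb* stood at 477 CPM in the control and 260 and 230 CPM in the KD libraries.

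Both globin genes with enough reads in the list were lower than in their own control. The row that joins *Hbb-b2* and *Hbb-bt*, adult beta-globin genes that share reads, went from 1237 to 512 and 511 CPM, below all 5 controls (831 CPM and more). *Hba-x*, an embryonic alpha-like globin gene, went from 86.1 to 26.4 and 24.96 CPM, within the 5 controls, which ran from 22.7 to 87.2 CPM. For these 2 genes the *Cbfa2t3* and *Irf2bp2* controls themselves lay a median of 0.81 and 0.86 below the *Kdm1a* control, and the KD median of -1.51 shrank to -0.84 against the mean of the 5 controls. The genes *Hba-a1*, *Hbb-y* and *Hbb-bh1* had at most 8 reads in any library.

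In haem synthesis 2 of 17 tested genes were lower (11.8%, beside 9.80% of all genes) and 1 was higher (5.88%, beside 13.1%). *Cpox*, which encodes coproporphyrinogen oxidase, went from 856 to 351 and 330 CPM, below all 5 controls. *Slc25a38*, which carries glycine into mitochondria for the pathway, was lower by 0.66 but not called against the mean of the 5 controls. *Alas2*, the rate-limiting enzyme of red cell haem synthesis, was not called, with 66.2 CPM in the control and 68.6 and 70.6 CPM in the KD libraries. *Hmox1*, which breaks haem down, went from 31.8 to 141 and 146 CPM, 4.51-fold higher and above all 5 controls.

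Iron genes were called in both directions, with 6 of 14 tested genes higher (42.9%, beside 13.1% of all genes) and 3 lower (21.4%, beside 9.80%). *Ncoa4*, the receptor that takes ferritin to the lysosome to free its iron, went from 139 to 672 and 692 CPM, 4.89-fold higher, and the ferritin heavy chain gene *Fth1* was 1.53-fold higher, at 2618 and 2604 CPM beside 1705 CPM in the control. The iron exporter *Slc40a1* (1.46-fold), the sensor *Tfr2* (1.48-fold), the ferric reductase *Cybrd1* (1.65-fold) and *Hfe* (3.81-fold from 9 reads, not called with shrunken fold changes) were also higher. The iron transporter *Slc11a2* and the reductase *Steap3* were 1.89-fold and 1.92-fold lower. All of these lay outside the 5 controls. *Tfrc*, the transferrin receptor, was 1.66-fold lower than its own control but within the other controls.

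Among 24 erythroid transcription factor genes, 3 were called, all lower and below all 5 controls, a share of 12.5% beside 9.80% lower over all genes. *Tal1* went from 179 to 94.8 and 96.3 CPM and *Lmo2* from 490 to 272 and 290 CPM. *Ssbp2* was lower by 0.56, a call lost when 10 counts were required in every library. *Ldb1* (0.16) and *Gata1* (-0.38), whose proteins join a complex with TAL1 and LMO2, were not called, nor were *Klf1* (-0.38), *Cbfa2t3* (0.24) and *Irf2bp2* (0.38). Of 15 tested progenitor factors, *Fli1*, *Runx1*, *Ikzf2* and *Spi1* were higher by 0.59 to 0.72, a share of 26.7% beside 13.1% of all genes. *Runx1* and *Ikzf2* lost the call against the mean of the 5 controls. *Spi1* encodes PU.1, which is overexpressed in MEL cells through a viral insertion, and went from 122 to 186 and 180 CPM. *Gata2* (-0.79), *Egr1* (-1.67) and *Mef2c* (-1.36) were lower than their own control (20%, beside 9.80% of all genes). At least 1 KD library of each lay within the range of the 5 controls. *Mef2c* had 17 reads in the control and 5 and 6 in the KD libraries, and was tested only through the control.

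Signalling genes were mixed, with 5 of 27 higher (18.5%, beside 13.1% of all genes) and 7 lower (25.9%, beside 9.80%). *Csf2rb*, the shared beta chain of the receptors for IL-3 and GM-CSF, went from 147 to 347 and 333 CPM, *Stat3* from 104 to 229 and 213 CPM and *Ptpn6* from 112 to 163 and 164 CPM. Among feedback genes of cytokine signalling, *Cish* was lower by 1.09 and *Socs3* by 1.01, while *Socs1* was higher by 0.87. Of the 7 lower genes, 5 are feedback genes or targets of the MAPK pathway: *Spry4* (-1.11), *Dusp6* (-0.79), *Spred1* (-0.73), *Etv4* (-1.42) and *Etv5* (-0.54). *Etv5* alone of these lay within the controls. They form no list of their own, and no share was set beside all genes. The median of the whole signalling list was 0.056. *Dusp4* went from 2 to 12 and 8 reads, a ratio of 4.89 with an interval of 1.19 to 43.2. The calls of *Dusp4* and *Etv4* were lost with shrunken fold changes.

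Interferon-stimulated genes were called higher in 19 of 28 cases and lower in 0, with a median of 0.89, beside 13.1% higher over all genes. This difference depended on the control. Only 8 of the 19 were above all 5 controls, and against the mean of the 5 controls the median was 0.13. The *Cbfa2t3* and *Irf2bp2* control libraries stood a median of 0.95 and 0.81 above the *Kdm1a* control, about as far as the KD libraries did. *Irf7*, a factor that amplifies the interferon response, shows the pattern: it went from 2.04 to 5.04 and 5.08 CPM, while the other controls reached 14.6 CPM. *Oas3* and *Oas2*, sensors of double-stranded RNA, behaved in the same way, with other controls up to 43.2 and 53.2 CPM beside at most 15.7 and 19.1 CPM in the KD libraries.

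The 8 genes above every control were *Ifit1*, *Oasl2*, *Isg15*, *Cxcl10*, *Ddx58*, *Oasl1*, *Stat2* and *Irf1*. The chemokine gene *Cxcl10* went from 0.39 to 1.96 and 2.08 CPM beside controls of at most 0.51 CPM, and *Irf1* from 4.31 to 8.70 and 7.99 CPM beside at most 5.17 CPM. *Ifit1* went from 2 reads to 90 and 63, a ratio of 37.4 with an interval of 10.2 to 312. For *Ddx58*, the RNA sensor RIG-I, the margin was narrow, with 20.7 and 20.9 CPM beside a highest control of 19.9 CPM.

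Of these 8 genes, 4 hold in their promoters GAAA followed by GAAA with any 2 bases between, the core of the element through which interferon acts. The letters are shown for *Isg15*, *Ifit1* and *Cxcl10* and not for *Ddx58*, whose call was lost against the mean of the 5 controls. They were read from mm9 on the strand of the gene, with the matched letters on either strand in capitals. The windows are chr4:155574959-155575030 on the minus strand for *Isg15*, chr19:34715250-34715328 on the plus strand for *Ifit1* and chr5:92778094-92778153 on the minus strand for *Cxcl10*.
*Isg15*: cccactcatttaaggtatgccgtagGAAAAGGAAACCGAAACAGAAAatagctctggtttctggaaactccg
*Ifit1*: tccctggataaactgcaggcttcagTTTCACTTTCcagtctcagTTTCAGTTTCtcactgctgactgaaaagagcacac
*Cxcl10*: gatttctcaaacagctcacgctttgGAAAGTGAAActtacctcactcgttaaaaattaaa
*Isg15* holds 3 overlapping matches that begin 78 bases before the start, and *Ifit1* holds 2 that begin 86 bases before it. Of the 28 interferon-stimulated genes 15 (53.6%) held the letters between 250 bases before and 50 after a start, beside 5.93% of all 11654 genes with a promoter window. They were in 10 of the 19 called higher and in 5 of the 9 not called.

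**Figure D4:**
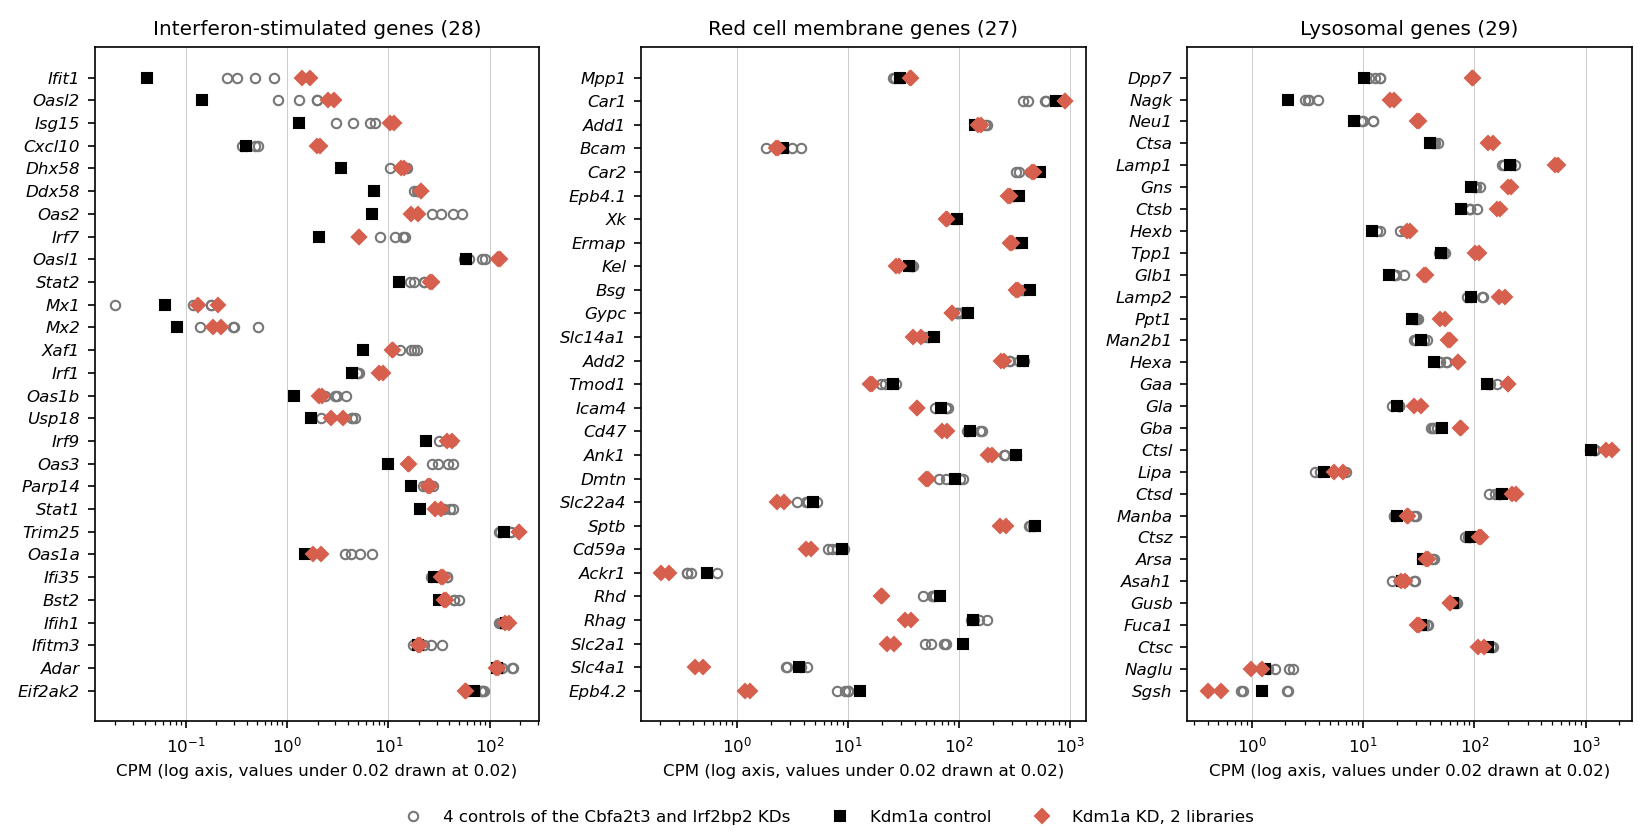
CPM on a log axis of the interferon-stimulated, red cell membrane and lysosomal genes in the *Kdm1a* control (squares), both KD libraries (diamonds) and 4 controls of the other shRNA experiments (circles), ordered by the KD difference. For most interferon-stimulated genes the circles reach or pass the diamonds, whereas the membrane genes called lower and the lysosomal genes called higher lie outside every control. A member each of the membrane and lysosomal lists is not drawn.

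Antigen presentation genes of MHC class I were called higher in 6 of 15 cases (40%, beside 13.1% of all genes) and lower in 0. All 6 were above every control, but *B2m*, *H2-D1*, *H2-Q4* and *H2-K1* lost the call against the mean of the 5 controls. The immunoproteasome gene *Psmb9* went from 14.4 to 35.2 and 30.9 CPM and the loading chaperone *Tapbp* from 40.1 to 79.1 and 87.0 CPM. *B2m*, the light chain, went from 97.3 to 156 and 186 CPM. The heavy chain genes *H2-D1* (0.68), *H2-Q4* (0.62) and *H2-K1* (0.59) were higher too, but their sequences are alike and reads may be shared among them. *Psmb8* (0.05), *Tap1* (0.04) and *Tap2* (-0.24), other genes of the pathway, were not called.

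Several further groups were drawn up after the values had been seen, so their counts describe and test nothing. In the NF-kB family, whose subunits are held inactive by inhibitor proteins, 7 of 16 genes were higher (43.8%, beside 13.1% of all genes) and 0 lower, and all 7 lay above every control, where 25.3% of all genes lay. The subunit genes were *Rel*, from 2.25 to 13.5 and 13.6 CPM, *Relb*, from 7.05 to 32.4 and 33.7 CPM, and *Nfkb2* (0.70). The inhibitors were *Nfkbia*, from 11.2 to 37.3 and 40.9 CPM, *Nfkbie* (1.38) and *Tnfaip3* (1.25). *Rela* (0.32) and *Nfkb1* (0.19) were not called. *Tbk1*, the kinase that acts downstream of STING, went from 45.7 to 98.3 and 100 CPM. The DNA sensor gene *Mb21d1* (cGAS, 0.33) and the factor *Irf3* (-0.21) were not called.

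Lysosomal genes, also listed afterwards, were higher in 18 of 30 cases (60%, beside 13.1% of all genes) and lower in 1. All 18 were above every control, as were 78.2% of all genes called higher with the 5 controls scaled together. The median was 0.66, or 0.62 against the mean of the 5 controls. The enzymes included the sialidase *Neu1*, from 8.24 to 31.3 and 29.7 CPM, its partner *Ctsa*, from 39.3 to 131 and 144 CPM, and the protease *Ctsb*, from 75.4 to 156 and 167 CPM. *Lamp1*, a membrane protein of the lysosome and no enzyme, went from 206 to 521 and 560 CPM. *Nagk* in this list is a cytosolic kinase that handles sugars released there. Only *Sgsh* was lower, from 1.21 to 0.52 and 0.39 CPM.

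Histone H2B genes of the replication-dependent clusters were higher in 14 of 15 cases (93.3%, beside 13.1% of all genes), with a median of 1.97, and above every control in all 14. *Hist1h2bc*, the most abundant, went from 6.85 to 30.7 and 30.3 CPM, and *Hist2h2be* was the only one not called (0.20). Among 41 genes of the other histone types 18 were higher (43.9%) and 1 lower (2.44%), the median was 0.41, or 0.19 against the mean of the 5 controls, and the higher ones were mostly of H2A, such as *Hist1h2ak* (0.82). Copies within each type are nearly identical, so the reads of 1 gene may appear under several and these rows are not independent. Such messages mostly lack a poly(A) tail, and the kit used selects for one.

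Markers of other blood lineages were mixed. Of 12 tested myeloid markers 6 were higher (50%, beside 13.1% of all genes) and 2 lower (16.7%, beside 9.80%). *Fcgr2b*, an inhibitory antibody receptor, went from 3.87 to 8.93 and 9.71 CPM and *Tyrobp*, a signalling adaptor of activating receptors, from 2.66 to 6.10 and 5.91 CPM, both above all 5 controls. *Irf5*, an interferon regulatory factor gene, went from 28.9 to 16.9 and 17.4 CPM and *Fcgr1*, an activating antibody receptor gene, from 2.86 to 1.29 and 1.73 CPM, both below all 5. The list's summed level was 138 CPM in the control and 136 and 142 CPM in the KD libraries. The defining genes *Mpo*, *Elane*, *Csf1r*, *Itgam* and *Lyz2* had at most 8 reads in any library, and 9 of the 37 markers had none or were not listed.

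Megakaryocyte markers were called in both directions, with 4 of 18 higher and 4 lower (22.2% each, beside 13.1% and 9.80% of all genes). The thrombin receptor genes *F2r*, from 335 to 657 and 737 CPM, and *F2rl2*, from 20.7 to 46.9 and 51.0 CPM, the integrin *Itgb3*, from 11.5 to 37.4 and 39.2 CPM, and the chemokine *Ppbp*, from 1.55 to 8.74 and 13.2 CPM, were higher. The von Willebrand factor receptor genes *Gp5*, *Gp1ba* (-0.90) and *Gp1bb* (-0.91) and the platelet receptor *Treml1* (-1.11) were lower. All 8 lay outside the 5 controls. *Gp9* (0.04), of the same receptor as *Gp5*, *Pf4* (-0.05) and *Itga2b* (-0.44), the partner chain of *Itgb3*, were not called.

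Mast cell and basophil markers were higher in 6 of 8 tested cases (75%, beside 13.1% of all genes) and lower in 1 (12.5%, beside 9.80%). Of the 6 higher ones, 4 were above all 5 controls, where 25.3% of all genes lay. The median of 1.45 became 0.34 with shrunken fold changes. Granzyme B (*Gzmb*) went from 2.86 to 15.1 and 17.1 CPM, and *Hdc*, the enzyme that makes histamine, from 14.3 to 38.3 and 36.1 CPM, both above all 5 controls. *Cma1* had 0 reads in the control and 1 and 15 in the KD libraries and *Cpa3* 1 read beside 16 and 8, so both had enough reads to be tested only through the KD, and *Il4* lay within the controls. *Il1rl1*, the IL-33 receptor, was lower, from 10.4 to 3.62 and 3.72 CPM. Of 8 lymphoid markers 5 were higher (62.5%, beside 13.1% of all genes) and 1 lower (12.5%, beside 9.80%). However, *Cd3g*, *Cd3d*, *Cd79a* and *Cd7* had 5 to 8 control reads and were tested only through the KD libraries. The median of 1.21 turned to -0.0081 when 10 counts were required in every library. Their levels were very low, a summed 4.79 CPM in the control and 9.04 and 9.36 CPM in the KD libraries. *Gata3* had the highest KD level among those called, going from 0.76 to 3.23 and 3.17 CPM. The stromal receptor *Pdgfrb* went from 5.85 to 23.3 and 20.3 CPM. What part cells of other lineages had in these values was not tested.

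Among neuronal genes that the factor REST represses together with CoREST, 5 of 10 tested were higher (50%, beside 13.1% of all genes), but the median of 0.41 became -0.005 against the mean of the 5 controls. *L1cam*, a neural adhesion gene, went from 0.51 to 4.74 and 5.21 CPM, and *Tubb3* from 1.98 to 17.4 and 16.0 CPM, both far above every control. *Syp*, a synaptic vesicle gene, *Stmn2* and *Mapk8ip1* lost the call against that mean, and 10 of the 20 listed members had too few reads to be tested.

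In the cell cycle list 1 of 23 genes was higher (4.35%) and 3 were lower (13%, beside 9.80% of all genes). *Ccnd2*, the cyclin D2 gene, went from 389 to 118 and 114 CPM and was 3.36-fold lower, below all 5 controls. *Ccne1* (-0.60) and *Cdkn2d* (-0.72) were lower and the inhibitor *Cdkn1b* (p27) was higher, from 17.8 to 32.0 and 32.7 CPM. Of 20 replication licensing genes 2 were lower (10%) and 0 higher: *Gins2*, from 58.8 to 24.7 and 25.01 CPM, and *Tyms* (-0.61). The calls of *Ccne1* and *Tyms* were lost against the mean of the 5 controls. In the BCL2 family 5 of 16 genes were higher (31.2%) and 3 lower (18.8%), beside 13.1% and 9.80% of all genes. The death-promoting genes *Bcl2l11* (BIM, 0.67), *Pmaip1* (NOXA, 0.93) and *Bok* (2.19, from 6 reads, not called with shrunken fold changes) were higher and above all controls, and the survival genes *Bcl2* (-0.60) and *Bcl2l2* (-0.59) were lower and below all controls. The death-promoting *Bmf* (1.74, not called with shrunken fold changes) and *Bbc3* (1.16) were higher and *Bnip3* (-1.25) lower, each with at least 1 KD library within the controls. *Mcl1* (0.10) and *Bcl2l1* (-0.48) were not called. Of 17 p53 targets 4 were higher (23.5%), 2 of them above all 5 controls, and 2 lower (11.8%), and *Cdkn1a* was not called (0.36).

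*Vim*, which encodes the intermediate filament vimentin, went from 230 to 1009 and 1057 CPM, 4.48-fold higher. It belonged to a list of 22 adhesion and cytoskeleton genes with 5 higher (22.7%, beside 13.1% of all genes), all above every control, and 1 lower. Of these 5, *Itga5* and *Itgb4* lost the call against the mean of the 5 controls. The tetraspanin *Cd53* in it went from 2.88 to 16.4 and 21.7 CPM, and the integrin chain *Itgb1* was lower (-0.61). In the cholesterol list, where 2 of 25 were called higher (8%, beside 13.1% of all genes) and 0 lower, the synthesis genes did not pass the limit, and both called genes were the export pumps *Abcg1* (0.80) and *Abca1* (0.62). Of 21 genes of the ATF4 stress response 2 were higher (9.52%, beside 13.1% of all genes) and 1 lower, *Cebpg* (-0.67), below all 5 controls. *Ddit3* (CHOP) went from 58.0 to 154 and 148 CPM beside controls of at most 135 CPM. The other higher gene, *Nupr1* (0.87), lost the call against the mean of the 5 controls.

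A list of hypoxia-responsive genes, drawn up after the values had been seen, had 11 of 28 members lower (39.3%, beside 9.80% of all genes) and 1 higher. Here too the control mattered: the *Cbfa2t3* controls stood a median of 0.53 and the *Irf2bp2* controls 0.18 below the *Kdm1a* control, and the KD median of -0.37 became -0.13 against the mean of the 5. *Pdk1*, *P4ha1*, *P4ha2*, *Egln3*, *Vegfa* and *Slc2a1* were below all controls, and *Bnip3*, *Ankrd37*, *Ndufa4l2*, *Ak4* and *Egln1* were not.

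Binding sites of ETO2 and IRF2BP2 were set beside these calls by giving each of 13229 sites to the single nearest gene within 1 Mb, for 10998 tested genes with a position on mm9. Of the genes called higher 47.6% had at least 1 site, of those called lower 46.6% and of all genes 44.9%. For sites shared by both factors the shares were 15.9%, 18.0% and 13.9%, for ETO2-only sites 11.1%, 13.0% and 9.43%, and for IRF2BP2-only sites 38.2%, 34.3% and 36.7%. The median difference of genes with a shared site was 0.02. Among the named genes, *Slc4a1* had shared sites in an intron and before its start, *Lmo2* had 3 shared sites, *Cpox* 2 and *Lgals1* 1.

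Core letters of GATA, GFI1, KLF and ETS factors were counted in the same promoter windows on either strand. AGATAAG was in 4.47% of genes called higher, 5.43% of those called lower and 4.19% of all, and in 4 of the 28 red cell membrane genes (14.3%), or 2 (7.14%, beside 3.89% of all) in the part before the start alone. The letters AAATCAC, which GFI1 and GFI1B read, were in 4.47%, 4.01% and 4.29%. CCACACCC was in 7.52%, 7.30% and 6.30%, and CACTTCC in 16.2%, 19.6% and 20.3%. Absence from so short a window says nothing of binding elsewhere.

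The other comparisons of the series have their own control libraries and were tested with edgeR's quasi-likelihood test at an adjusted p of 0.05 and a log2 of 0.5. For the *Cbfa2t3* KD the libraries of hairpins sh2 and sh3 were pooled, so the spread within that group includes differences between hairpins. *Ccnd2*, for example, stood at 172.5 and 190 CPM with sh2 and at 460.1 and 470 CPM with sh3, beside controls of 362.4 and 351 CPM. The *Cbfa2t3* KD (2.99% of genes up, 2.75% down) has few calls (134 genes up and 145 down without its first control library, in place of 375 and 345), and its overlap consists mostly of opposite directions: 47.7% of its lowered genes were higher in the *Kdm1a* KD beside 12.1% of all, and 34.8% of its raised genes were lower beside 9.82%. Those shared genes are 11% of the *Kdm1a* higher genes and 9.99% of the lower ones. *Vim* went from 214 CPM to 25.3 CPM in the *Cbfa2t3* KD (log2 -3.07, adjusted p = 0.000124 from edgeR) and *Epb4.2* from 9.56 to 48.1 CPM (log2 2.34, adjusted p = 0.000312 from edgeR), each opposite to the *Kdm1a* KD.

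The *Irf2bp2* KD (10.1% up, 12.5% down) shared 874 called genes with the *Kdm1a* KD, of which 37.8% moved the same way. Of its lowered genes 22.9% were higher in the *Kdm1a* KD beside 11.8% of all, and these are 24.3% of the *Kdm1a* higher genes. The other side was weaker, since its raised genes were higher in 12.7% and lower in 16.1% of cases, and 16.4% of the *Kdm1a* lower genes were raised and 14.8% lowered. A few of the largest *Kdm1a* falls moved the same way: *Grsf1* went from 125 to 38.6 CPM (log2 -1.71, adjusted p = 1.35e-10 from edgeR) and *Reps2* from 36.9 to 12.7 CPM. *Ncoa4* and *Hmox1*, both higher in the *Kdm1a* KD, went from 203 to 64.5 CPM and from 37.6 to 6.54 CPM in the *Irf2bp2* KD.

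In MEL differentiation (12.4% up, 14.8% down) 834 genes were called in both, and 42.3% of them moved the same way. Lowered genes there were higher in the *Kdm1a* KD in 17.2% of cases beside 11.3% of all, and made up 22.6% of the *Kdm1a* higher genes. The raised genes were higher in 12.1% and lower in 13.3% of cases, and of the *Kdm1a* lower genes 16.6% were raised and 16.6% lowered on induction. *Lgals1* went from 564 to 66.6 CPM on induction (log2 -3.07, adjusted p = 0.00998 from edgeR) and *P2rx7* from 99.3 to 11.7 CPM (log2 -3.08, adjusted p = 1.56e-05 from edgeR). *Rhag*, *Rhd* and *Tal1* rose on induction, with log2 values of 1.31, 4.39 and 1.83, and were lower in the *Kdm1a* KD. *Lmo2* and *Slc2a1* were lower in both, by 1.53 and 2.43 on induction. Across all genes Pearson's r of the log2 differences with the *Kdm1a* KD was -0.25 for *Cbfa2t3*, -0.15 for *Irf2bp2* and -0.10 for differentiation, and Spearman's rho was weaker, at -0.173, -0.0649 and -0.0455. Genes share libraries and are no independent replicates.

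**Figure D5:**
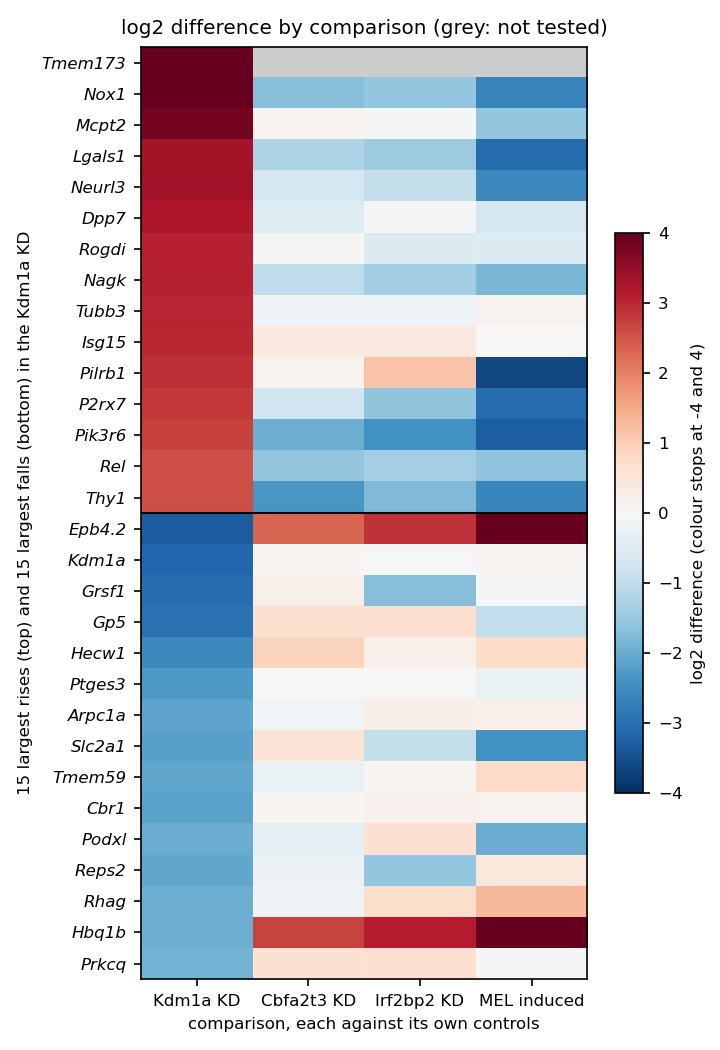
Log2 difference of the 15 largest rises and 15 largest falls of the *Kdm1a* KD in 4 comparisons, each against its own controls, with colours from -4 to 4 and grey where a gene was not tested. Most genes higher in the *Kdm1a* KD are blue on MEL induction, among them *Lgals1* (-3.07) and *P2rx7* (-3.08), and *Epb4.2* and *Hbq1b* are red in the other 3 columns.

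The *Gfi1b* KD bears on the factor that recruits LSD1, but 1 of its libraries went against its label. *Gfi1b* stood at 123 and 145 CPM in the controls, at 76.3 CPM in the library labelled KD replicate 2 and at 215 CPM in the library labelled KD replicate 1. With both libraries edgeR called 0 of 11190 genes up and 0 down (0% each), while 784 had an unadjusted p under 0.05 and DESeq2 called 59. By the fold limit alone, 71.9% of the genes shared with the library labelled KD replicate 2 moved as in the *Kdm1a* KD, and 59.4% of those shared with the library labelled KD replicate 1. Of all genes 10.8% were higher and 9.35% lower in the *Kdm1a* KD. Genes raised in the library labelled KD replicate 2 were higher in 30.6% and lower in 9.26% of cases, and lowered ones in 10.1% and 14.9%. For the library labelled KD replicate 1 these shares were 16.7% and 11.3%, and 7.88% and 11.4%. *Tmem173* stood at 0.41 and 0.81 CPM in the *Gfi1b* controls and at 6.41 and 11.3 CPM in the libraries labelled KD. *Csf2rb* stood at 208 and 212 CPM in the controls and at 630.5 and 538 CPM in the libraries labelled KD. How many of all genes separate these groups was not counted, so nothing is concluded from these genes. *Epb4.2* was at 0.82 and 0.20 CPM in those controls, at 66.1 CPM in the library labelled KD replicate 1 and at 2.21 CPM in that labelled KD replicate 2.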

How the data were processed

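RNA of MEL cells was sequenced on an Illumina instrument after poly(A)-selecting library preparation. The authors aligned reads to mm9 with TopHat2, which uses Bowtie, and deposited for each comparison a table of raw read counts and of RPKM values per RefSeq gene made with rpkmforgenes. The same tables hold the authors' fold changes (a ratio) and adjusted p-values from DESeq2, and the deposited site list holds fold enrichment as a ratio and p-values. The authors' fold changes and p-values for expression were not used. The site classes, coded by number, were read from the sizes of the classes.

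Here, counts were scaled with TMM in edgeR 4.0.16 (R 4.3.3), filtered with filterByExpr and expressed as CPM with a prior count of 2 for log2 values. DESeq2 1.42.0 was an alternative. Intervals cover counting error only, and any p-value measures only the spread between libraries, which the study's methods call independent biological replicates. For the *Cbfa2t3* KD that spread includes differences between the pooled hairpins sh2 and sh3. The scripts were tested on simulated data. Sites and promoters were joined to GENCODE starts on mm9 in Python 3.11.15 with pandas 2.3.3. By symbol or older symbol 92.3% of tested genes had a promoter window. The *Kdm1a* libraries, the gene lists and the tests were chosen with earlier results of these data known.

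Named genes were *Kdm1a*, the LSD1 complex, *Alas2*, *Epb4.2* and *Slc22a4*, which the study measured by qPCR, the 15 largest rises and falls by the smaller of both KD differences with a mean of 5 CPM or more, and up to 6 members of each list by the same rank. Other members named here were chosen after their values were seen. Alternatives were DESeq2 size factors, prior counts, count filters, a log2 limit of 1, shrunken fold changes, each library left out, the replicate block and the mean or range of 5 controls. Files with no measurement for this KD were used only for comparison. Some items are not reported here.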

Additional observations from a re-analysis of the deposited data

Results flagged for a closer look

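Among 32 genes looked at across the 5 control libraries, in which chance flags about 1 in 20, *Hbq1b* stood at 21.89 CPM in the *Kdm1a* control, far above the other 4 controls at 5.307 to 7.856 CPM. The KD libraries lie with those 4, so the 3.85-fold fall of *Hbq1b* rests on its own control. *Alas2* stood at 80.69 CPM in *Irf2bp2* control replicate 2, above the other controls at 67.03 to 70.13 CPM.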

How the results depend on the processing

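Without a filter on low counts 2201 genes were higher and 1905 lower. At a log2 limit of 1 there were 597 higher and 267 lower genes, 864 in all, and 69.1% of calls were higher instead of 57.2%. With KD replicate 1 or 2 left out, 1944 to 2043 genes were higher, 1558 to 1602 lower and 3546 to 3601 either, and *Kdm1a* differed by -3.21 to -3.16. *Kdm1a* differed by -3.06 with DESeq2's shrunken fold change and by -3.13 against the mean of the 5 controls. Against that mean 108 of 134 named called genes kept their call, *Syp* turned to -0.0885, and 3 genes were called the opposite way (*Irf7* from 1.29 to -0.70, *Oas3* from 0.66 to -0.76 and *Mir6935* from -0.84 to 0.82). All 134 kept it with DESeq2 size factors and with a prior count of 0.5, but 114 with DESeq2's shrunken fold changes (1105 genes higher and 942 lower), and of 120 with 10 counts in every library all but *Ctbp2* and *Ssbp2*. The lymphoid median turned to -0.0081 with 10 counts required in every library. The *Cbfa2t3* overlap of 353 genes became 536 with no fold limit, 149 at a *Kdm1a* log2 limit of 1, and 144 to 406 with a library left out (144 without the first and 182 without the second *Cbfa2t3* control, which left 134 and 186 genes up and 145 and 174 down in place of 375 and 345). The *Irf2bp2* overlap of 874 became 1319, 300 and 769 to 1033 in the same order. The differentiation overlap of 834 became 275 at a *Kdm1a* log2 limit of 1 and 432 to 985 with a library left out (432 and 460 without non-induced replicate 1 or 2), and its 1449 genes up and 1738 down became 748 and 878, 726 and 796, and 927 and 845 without non-induced replicate 1, non-induced replicate 2 or induced replicate 2. The *Gfi1b* overlap of 0 became 37 with DESeq2, 0 to 689 with a library left out (181 without the library labelled KD replicate 1, 689 without that labelled KD replicate 2), and 1099 and 762 by the fold limit alone for the libraries labelled KD replicates 1 and 2. With the replicate block the overlap was 314 for *Cbfa2t3*, 893 for *Irf2bp2*, 968 for differentiation and 0 for *Gfi1b*. Same-numbered libraries correlated between 0.0015 and 0.25, with only 2 numbers per table, so the numbers serve as names. The cause of these shifts was not tested. These alternatives also covered the genes named by rule, the list medians, the shares moving the same way, and the site and promoter shares. Of those values, 1135 stayed within their limits and 338 moved, and *Syp* and the lymphoid median changed sign. Medians closer to 0 crossed it in the LSD1 complex, signalling, megakaryocyte, neuronal, cell cycle and ATF4 lists. Low genes are limited by depth, as 3 reads are up to 0.0656 CPM.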
